A study of Mus musculus with 18 samples.

Results

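Islets heterozygous for Slc30a8 (Het) were compared with wild type islets (WT), both cultured with cytokines: 6 of the 18 libraries of the series, 3 per genotype, taken by their labelled genotype and treatment. Each library is RNA-seq of whole pancreatic islets from 17-week-old male mice, so it holds RNA from endocrine cells and from all that came along in the preparation. The Het islets are ZNT8 +/- in the labels and the WT islets ZNT8 +/+. After an overnight rest, both spent 24 h in medium with TNF-α (100 pg/ml), IL-1β (150 pg/ml) and also IFN-γ (10 pg/ml). All mice were NOD.CB17-Prkdcscid/NCrCrl, so both genotypes share the diabetes-prone NOD background and a Prkdc mutation that leaves them without mature T and B lymphocytes. Knockout (KO, ZNT8 -/-) islets given the same cytokines, and untreated Het and WT islets kept for 24 h in medium alone, are used to place the comparison. How the alleles were made is not stated in the labels. The extraction protocol gives 3 mice and does not tie libraries to mice, so the spread behind each p-value is that between these samples and may be technical.

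Slc30a8 encodes zinc transporter 8 (ZnT8), which loads zinc into the insulin granules of beta cells, where zinc packs insulin into crystals. TNF-α and IL-1β act on beta cells through NF-kB, and together with IFN-γ they switch on nitric oxide synthase, chemokines and antigen presentation, the setting of type 1 diabetes. Islets sit in exocrine tissue, whose acinar cells make digestive enzymes and whose ducts drain them, and isolated islets carry some of both. Because the title of the series names mitochondrial respiration beside ZnT8 haploinsufficiency, respiratory genes are set out as a group.

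No single gene passed between Het and WT islets with edgeR, and most genes that a pair of other tools both called were acinar or Reg genes, lower in Het. By the quasi-likelihood test of edgeR, Benjamini-Hochberg adjusted, 0 of 17590 genes were higher and 0 lower (background 0%), and the smallest adjusted p was 0.124. At an unadjusted p under 0.05, 534 genes (3.04%) were higher and 716 (4.07%) lower. The same table gave 3 higher (0.0171%) and 48 lower (0.273%) genes by DESeq2, and 14 higher (0.0796%) and 104 lower (0.591%) by limma voom with quality weights. With the replicate number of the authors' metadata table as a block, edgeR called 0 higher and 3 lower, the acinar genes Cuzd1, Cpb1 and Amy2b. This block was added after seeing the data. Without WT replicate 1, the WT library with the lowest summed acinar and Reg levels, edgeR called 0 higher and 31 lower. Of these 31, 18 were acinar or Reg genes. A block on the label replicate number gave 0 higher and 2 lower, Paox and Tff2, the latter listed with the acinar genes. A fit on only the groups compared called 1 higher, Tanc1, and 0 lower. DESeq2 and limma voom shared 50 calls, 47 of them lower, and 29 of the 50 were acinar or Reg genes. Single-gene values are therefore given as estimates (log2 fold change, Het over WT, ± SE) that did not pass edgeR, and CPM stands for counts scaled to library size. The 6 libraries held 24099962 to 28137367 counts each. All genes together had a median of -0.01, with 48.4% of estimates positive. The genotypes were counted as not overlapping where every Het library lay on one side of every WT library; over all genes this held for 1356 higher (7.71%) and 1435 lower (8.16%).

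Slc30a8 (ENSMUSG00000022315; chromosome 15, 52295553 to 52335798, plus strand, GRCm38) stood at 32.1, 34.3 and 56.6 CPM in Het islets, against 34.5, 43.7 and 46.4 CPM in WT islets. The groups overlapped, and the estimate was -0.02 ± 0.19 (adjusted p = 0.985 by edgeR), so the transcript count does not check the Het label. In KO islets with cytokines the counts were 20.8, 23.2 and 20 CPM, which passed against the same WT libraries at -0.96 ± 0.19 (edgeR adjusted p = 0.0104). Of 24 genes tested within 5 Mb of Slc30a8, 1 had an unadjusted p under 0.05 between Het and WT islets, against a background of 7.11%.

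Genes of pancreatic acinar cells stood lower in Het islets. Of 45 listed, 42 were tested and 3 were not, and 39 had negative estimates, with a median of -1.44, against -0.01 over all genes. Of the 42, 35 had an unadjusted p under 0.05 and were lower (4.07% of all genes), and 33 were lower without overlap (8.16%). By edgeR 0 passed, while DESeq2 called 26 and limma voom 29, all lower. The most abundant was chymotrypsinogen Ctrb1, with 1999, 1548 and 1455 CPM in Het islets, against 2422, 4828 and 4313 CPM in WT islets. Its groups did not overlap, and Het stood at -1.21 ± 0.31 (edgeR adjusted p = 0.289).

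Named enzymes that cut protein, fat, starch or RNA stood lower in Het islets. Carboxypeptidase B1, Cpb1 (ENSMUSG00000011463; chromosome 3, 20248264 to 20275733, minus strand), stood at 96.2, 59.2 and 55.6 CPM in Het islets, against 146, 245 and 203 CPM in WT islets. That is -1.49 ± 0.27 on the log2 scale (edgeR adjusted p = 0.124), with the 3 Het libraries all under the 3 WT libraries. The trypsinogen gene Try4 stood at 56.5, 47 and 43.5 CPM in Het islets, against 118, 161 and 129 CPM in WT islets (-1.47 ± 0.27). The bile salt-activated lipase Cel stood at 190.2, 119 and 122 CPM in Het islets, against 283, 527 and 384 CPM in WT islets (-1.47 ± 0.28). The groups of both genes lay apart, and so did those of Clps, the cofactor of pancreatic lipase, at 66.1, 50.1 and 39.5 CPM in Het islets, against 103, 182 and 139 CPM in WT islets (-1.44 ± 0.28). Pancreatic ribonuclease Rnase1 stood at 20.7, 15.8 and 15 CPM in Het islets, against 34.1, 54 and 48.6 CPM in WT islets (-1.41 ± 0.25). Zg16, a lectin of the zymogen granule membrane, stood at 13.9, 12.8 and 9.22 CPM in Het islets, against 33, 39.5 and 32.2 CPM in WT islets, the smallest p of the list (-1.55 ± 0.25, edgeR adjusted p = 0.124). For Rnase1 and Zg16, too, each Het library lay under each WT library. The salivary-type amylase Amy1 and the pancreatic amylase Amy2b had estimates of -1.53 ± 0.29 and -1.51 ± 0.32. Trypsinogen Prss2, with 525, 370.2 and 312 CPM in Het islets, against 541, 1250.4 and 1261 CPM in WT islets, shows WT replicate 1 near the highest Het library. Trypsinogens and elastases are families of similar genes, so reads may be split between members. The 3 positive estimates were those of Cpn1 (0.15), the acinar transcription factor Bhlha15 (0.11) and Egf (0.07), all with overlapping groups.

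The transcription factors Ptf1a and Rbpjl had few counts. Ptf1a, which directs acinar gene expression together with Rbpjl, stood at 1.78, 0.693 and 0.286 CPM in Het islets, against 1.36, 2.84 and 2.23 CPM in WT islets (-1.23 ± 0.50), and Rbpjl at 0.581, 0.255 and 0.286 CPM in Het islets, against 0.455, 2.09 and 0.98 CPM in WT islets (-1.65 ± 0.61). For both genes the genotypes overlapped. They belong to a list of 12 acinar transcription and granule regulators with mixed estimates, 5 positive and 7 negative (median -0.25). Of these 12, 4 were lower and 0 higher at an unadjusted p under 0.05, and 3 were lower and 1 higher without overlap (8.16% and 7.71% of all genes). Summed, the list stood at 805 ± 27.9 CPM in Het and 805 ± 55.9 CPM in WT islets (SD). Ptf1a and Rbpjl, which are also among the 42 acinar genes, averaged 1.53 and 0.774 CPM over the 6 libraries. The sum therefore rests on more abundant members. The promoters of 3 acinar genes are shown because these genes had the smallest p among members with 1 RefSeq promoter entry (GRCm38.p6). Capitals mark the E-box CACCTG on either strand, part of the paired motif that PTF1 binds. Each is the 250 bases before the start, 5′ to 3′ along the gene.
Cpb1 (chr3:20275734-20275983, minus strand): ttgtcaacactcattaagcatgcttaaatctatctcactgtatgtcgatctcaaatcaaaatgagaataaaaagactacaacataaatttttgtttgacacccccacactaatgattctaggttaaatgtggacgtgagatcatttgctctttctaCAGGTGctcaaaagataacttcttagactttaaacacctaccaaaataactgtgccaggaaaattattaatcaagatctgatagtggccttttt
Rnase1 (chr14:51146768-51147017, minus strand): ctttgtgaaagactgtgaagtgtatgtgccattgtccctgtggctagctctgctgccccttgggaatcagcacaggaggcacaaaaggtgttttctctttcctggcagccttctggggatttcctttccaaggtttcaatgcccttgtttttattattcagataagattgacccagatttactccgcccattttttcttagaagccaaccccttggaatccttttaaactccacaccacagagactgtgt
Try4 (chr6:41302022-41302271, plus strand): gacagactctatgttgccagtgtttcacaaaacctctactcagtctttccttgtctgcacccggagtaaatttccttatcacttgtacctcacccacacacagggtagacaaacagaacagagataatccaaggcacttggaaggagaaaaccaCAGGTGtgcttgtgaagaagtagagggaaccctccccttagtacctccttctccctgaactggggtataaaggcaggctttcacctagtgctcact
CACCTG occurred once in the Cpb1 and once in the Try4 window, on the reverse strand as CAGGTG, and not in the Rnase1 window. Over the 35 RefSeq promoters of 32 acinar members, 54.3% held CACCTG, against 17.2% of all 32851 promoters. Several of these genes are related copies, so their promoters are not independent. The other E-box, CAGCTG, was in 17.1% against 13% of all, and the partner motif TTTCCC, either strand, in 20% against 21.9%. No window shown held CAGCTG or TTTCCC. A match of letters is a description and does not show binding.

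Summed over the 42 genes, acinar levels were 5565, 4079 and 3691 CPM in Het islets, against 7801, 13687 and 11908 CPM in WT islets. The means were 4445 ± 989 CPM in Het and 11132 ± 3019 CPM in WT islets (SD, n = 3 each), or 0.444% and 1.11% of counts, and the groups did not overlap. With 3 libraries against 3, an exact permutation test cannot give a p below 0.1. Het and WT libraries share numbers in the deposited metadata, and what these mark is not stated. Within pairs of the same number the Het level was 0.523, 0.407 and 0.31 times that of WT. Because the groups did not overlap, any pairing would place Het lower. Whether fewer acinar cells or less acinar RNA per cell gave these levels cannot be told apart in bulk RNA. KO islets with cytokines, compared with the same WT libraries, stood at 1101, 2171 and 2788 CPM, and 36 of the 42 genes passed as lower there (edgeR; 3.85% of all genes did). In untreated islets, from other libraries, the summed level was 4899, 5827 and 6734 CPM in Het, against 10546, 10529.9 and 10444 CPM in WT islets. Whether these libraries share mice with those given cytokines is not stated, so the treatments may not be independent. Over the alternatives the list's median with cytokines ran from -1.64 to -1.22, and it was -1.19 untreated, and 29 genes were lower without overlap in both treatments (69%, against 1.22% of all genes). The difference between treatments passed for 0 of the 42 (edgeR), and 2 had an unadjusted p under 0.05.

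**Figure D1:**
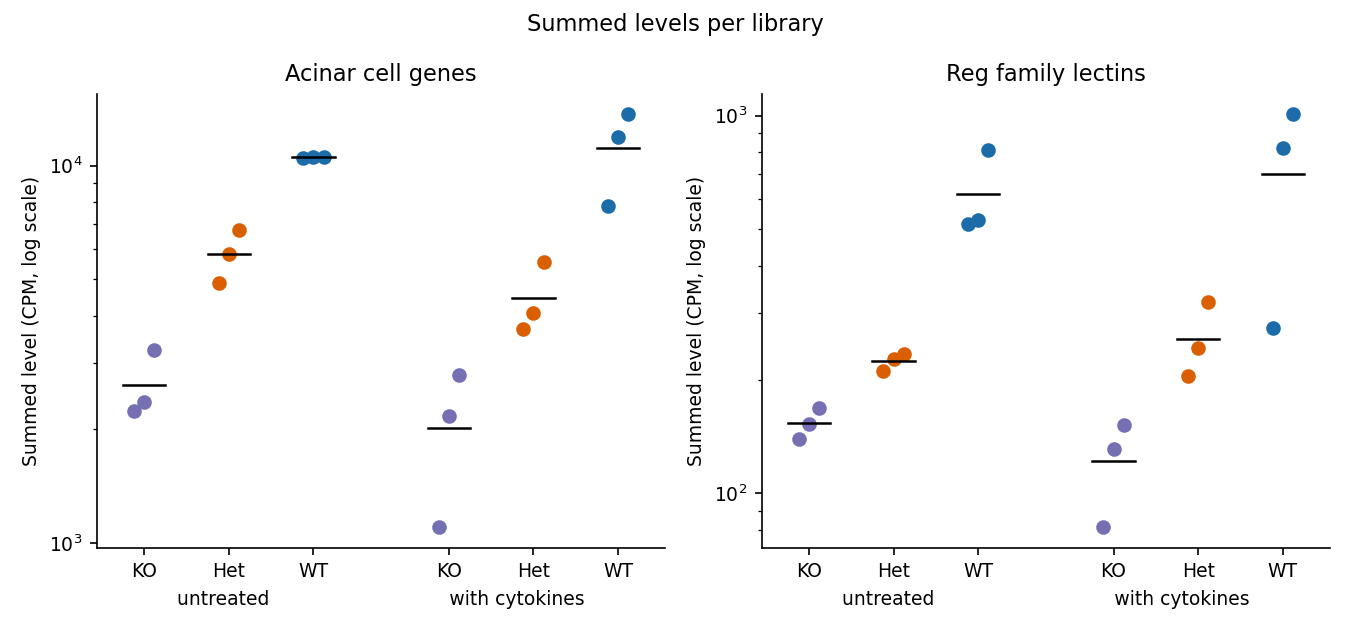
Summed level (CPM, log scale) of 42 acinar genes (left) and 6 Reg genes (right) in each library, by genotype, untreated and with cytokines; points are libraries and bars group means. With cytokines the 3 Het libraries lie at 3691 to 5565 CPM for the acinar genes, under the 3 WT libraries at 7801 to 13687 CPM.

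The Reg lectins, secreted proteins of acinar cells that rise with pancreatic injury and inflammation, lay in the same direction. All 6 tested had negative estimates and an unadjusted p under 0.05, with a median of -1.44. Only 2 were lower without overlap (8.16% of all genes). Reg2 stood at 56.1, 36.1 and 39.1 CPM in Het islets, against 60, 159 and 179 CPM in WT islets (-1.60 ± 0.31, edgeR adjusted p = 0.124). Reg1 stood at 116, 76.8 and 78.6 CPM in Het islets, against 108, 303 and 343 CPM in WT islets (-1.47 ± 0.35), and Reg3b at 121, 75.4 and 99.3 CPM in Het islets, against 82.4, 298 and 406 CPM in WT islets (-1.41 ± 0.42). In all 3 genes WT replicate 1 stood far under the other WT libraries. Summed Reg levels were 320.3, 205 and 242 CPM in Het, against 274, 822 and 1009 CPM in WT islets.

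Duct genes had mostly negative estimates, smaller than those of acinar genes. Of 20, 19 were negative, with a median of -0.48 (-0.23 without WT replicate 1 and -0.29 without Het replicate 3). Without overlap 6 were lower, against 8.16% of all genes. Summed duct levels were 6463, 7359 and 5709 CPM in Het, against 9987, 9093 and 7058 CPM in WT islets, with overlap, and within the metadata pairs Het was 0.737, 0.711 and 0.809 times WT. By edgeR 0 passed and 5 had an unadjusted p under 0.05; DESeq2 called 2 and limma voom 3. Keratin 8, Krt8, stood at 803, 853 and 685 CPM in Het islets, against 1021, 1316 and 1187 CPM in WT islets (-0.59 ± 0.14), and its partner keratin Krt18 at 600.5, 615 and 462 CPM in Het islets, against 729, 966 and 859 CPM in WT islets (-0.61 ± 0.15). The duct keratin Krt19 stood at 75.2, 80.7 and 49.6 CPM in Het islets, against 100.4, 174 and 128 CPM in WT islets (-0.97 ± 0.31), the mucin Muc1 at -0.56 ± 0.22 and the tight junction protein Cldn4 at -0.50 ± 0.20. Each of these 5 was lower without overlap. Keratin genes have many processed copies, so reads may be split. Untreated, the list's median was 0.10, with 12 of 20 positive. Acinar sums differ between the same libraries by the values above, and their part in the duct values was not tested.

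Beyond the digestive enzymes, several epithelial and metabolic genes stood lower. Paox, which breaks down acetylated polyamines, had the smallest p of all genes, with 6.93, 7.87 and 6.54 CPM in Het islets, against 11.2, 13.1 and 11.9 CPM in WT islets (-0.76 ± 0.12, edgeR adjusted p = 0.124). In untreated islets it stood at -0.08 ± 0.12. Prostasin, Prss8, a membrane protease of epithelia, stood at 13.6, 12.8 and 11 CPM in Het islets, against 16.9, 21.4 and 19.2 CPM in WT islets (-0.62 ± 0.11). The trefoil peptide gene Tff2, listed with the acinar genes, stood at 1.67, 1.9 and 1.86 CPM in Het islets, against 3.84, 6.76 and 5.49 CPM in WT islets (-1.57 ± 0.29). Vps36, a subunit of the ESCRT-II sorting complex, showed a small and even shift, at 36.7, 36.4 and 34.7 CPM in Het islets, against 42.3, 42.5 and 41.9 CPM in WT islets (-0.23 ± 0.04). Crct1 stood at 2.79, 3.21 and 3.07 CPM in Het islets, against 4.63, 6.13 and 6.03 CPM in WT islets (-0.89 ± 0.17) and was the 1 gene that passed between untreated Het and WT islets, as lower there (-1.41 ± 0.18, edgeR adjusted p = 0.0203; 0.00569% of genes). That call was lost with limma voom, with either replicate block, on only the groups compared, and without untreated Het replicate 2 or 3 or untreated WT replicate 1 or 2.

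Among stress genes, Phgdh, which opens serine synthesis and is an ATF4 target, stood at 22.7, 18.2 and 17.9 CPM in Het islets, against 23.9, 30.7 and 30.3 CPM in WT islets (-0.53 ± 0.11, edgeR adjusted p = 0.132). Untreated, it was at -0.02 ± 0.10. Nupr1, a stress gene strongly made in pancreas, stood at 234, 138 and 148 CPM in Het islets, against 214, 503 and 485 CPM in WT islets (-1.21 ± 0.29), with overlap at WT replicate 1 and Het replicate 1. In untreated islets Nupr1 stood at -1.37, and in KO islets with cytokines at -2.28 against the same WT libraries. Atf3, a stress-induced transcription factor, stood at 7.67, 6.96 and 7.47 CPM in Het islets, against 9.42, 11 and 10.1 CPM in WT islets (-0.47 ± 0.12). The 24 genes of the ATF4 and CHOP list had a median of -0.07, 3 of them lower at an unadjusted p under 0.05 and 0 higher. Without overlap 5 were lower (8.16% of all genes) and 0 higher. DESeq2 called 2 and limma voom 3, all lower, and edgeR 0. The small heat shock gene Hspb1 was at -0.84 ± 0.25, while the list of 20 heat shock genes had a median of -0.03 and that of 33 ER chaperones 0.03.

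**Figure D2:**
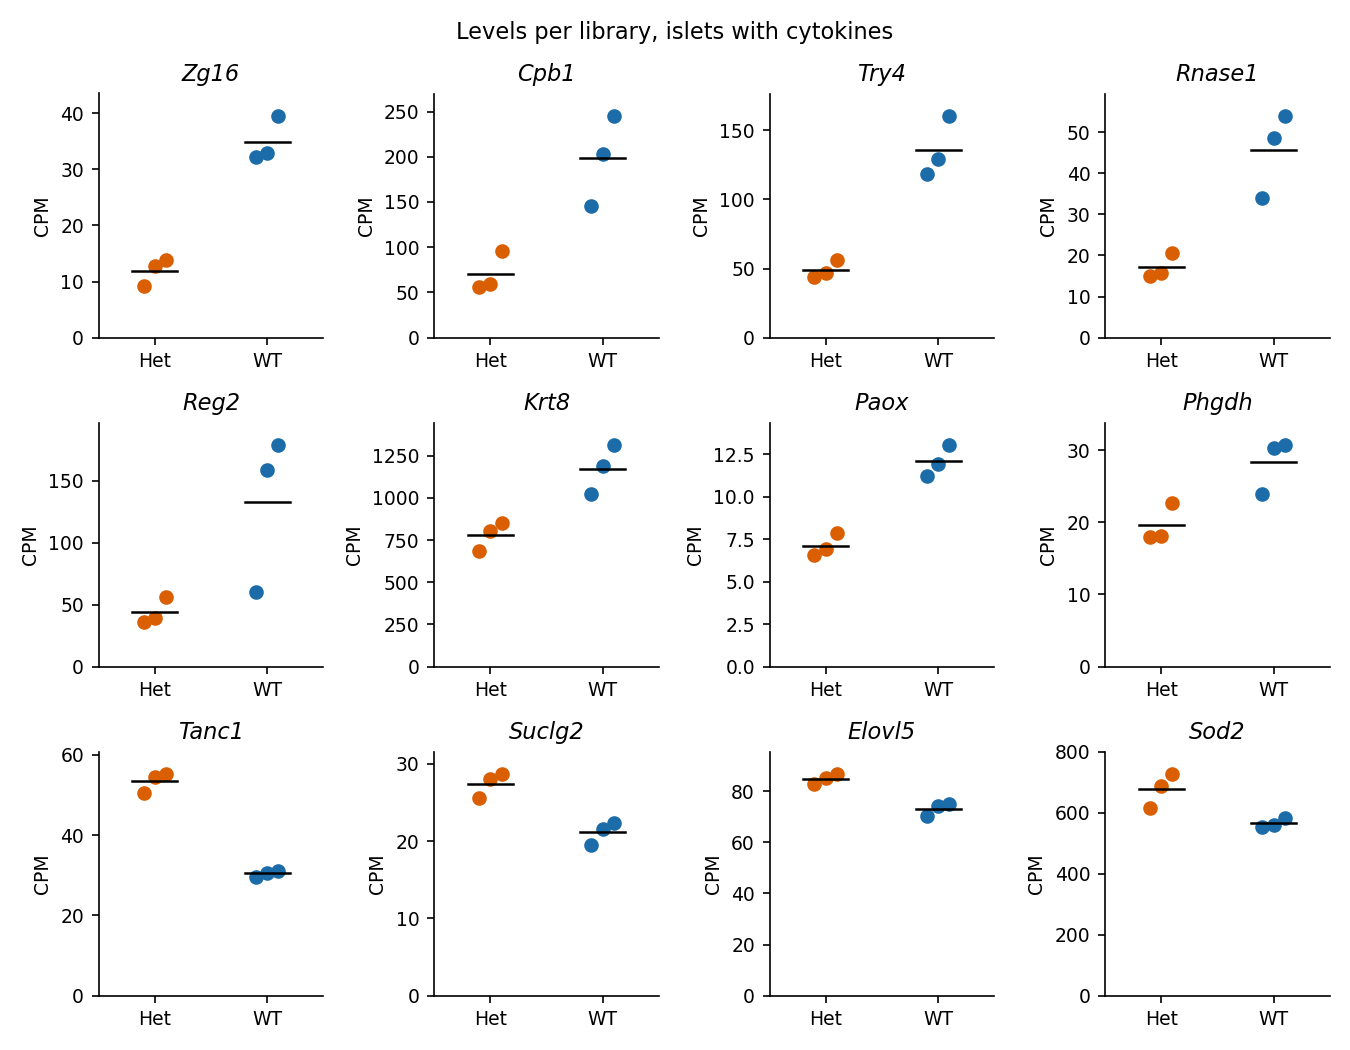
Levels in CPM of 12 genes in each of the 6 libraries with cytokines, Het left and WT right; points are libraries, bars are means and each axis starts at 0. In each panel the Het libraries lie apart from the WT libraries, below them for 8 genes and above them for Tanc1, Suclg2, Elovl5 and Sod2.

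Among genes that stood higher in Het islets, Tanc1, a scaffold protein of synapses, had the smallest p, with 55.3, 50.5 and 54.5 CPM in Het islets, against 29.6, 31.1 and 30.7 CPM in WT islets (0.81 ± 0.16, edgeR adjusted p = 0.126). It was also higher without overlap in untreated islets (0.61 ± 0.16), where 3.46% of all genes were, and a fit on these groups alone called it as the 1 passing gene (adjusted p = 0.00819). Suclg2, the GTP-forming subunit of succinyl-CoA ligase in the TCA cycle, stood at 28.7, 25.6 and 28 CPM in Het islets, against 19.5, 22.3 and 21.6 CPM in WT islets (0.37 ± 0.08). Elovl5, which lengthens polyunsaturated fatty acids, stood at 85.2, 82.6 and 86.8 CPM in Het islets, against 74.3, 70.2 and 75.1 CPM in WT islets (0.21 ± 0.05). Tanc1, Suclg2 and Elovl5 were called by both DESeq2 and limma voom. The largest of the named higher estimates was that of desmoglein 3, Dsg3, an adhesion protein of stratified epithelia, with 6.85, 11.8 and 13.8 CPM in Het islets, against 2.31, 1.88 and 1.29 CPM in WT islets (2.57 ± 0.62, edgeR adjusted p = 0.236). Untreated, Dsg3 stood at 5.39, 22 and 46.8 CPM in Het islets, against 1.45, 2.18 and 1.87 CPM in WT islets, again without overlap, and in KO islets with cytokines at 0.6, 0.135 and 1.04 CPM. Sv2b, a synaptic vesicle protein, stood at 0.63 ± 0.16, the iron regulator Hfe at 0.48 ± 0.13, the microtubule protein gene Mapt at 0.44 ± 0.12 and the glucose transporter gene Slc2a3 at 0.76 ± 0.21.

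Beta cell genes had mostly small positive estimates. Of 43 identity genes tested, 40 had positive estimates (48.4% of all genes did), with a median of 0.14. Without overlap 18 were higher and 1 lower, against 7.71% and 8.16% of all genes. By edgeR, DESeq2 and limma voom 0 passed, and 3 were higher and 1 lower at an unadjusted p under 0.05. Insulin 2, Ins2, stood at 94474, 105060 and 112210 CPM in Het islets, against 87652, 95017 and 100460 CPM in WT islets, with overlapping groups (0.14 ± 0.13). Ins1 was at 0.13 ± 0.12. Islet amyloid polypeptide, Iapp, co-secreted with insulin, stood at 18284, 20490 and 19242 CPM in Het islets, against 16266, 17924 and 17868 CPM in WT islets (0.16 ± 0.12). Mafa, a transcription factor of mature beta cells, stood at 119.8, 107 and 105 CPM in Het islets, against 68.5, 91.5 and 94.4 CPM in WT islets (0.38 ± 0.21). Ucn3, a peptide of mature beta cells, stood at 18.7, 16.8 and 20.5 CPM in Het islets, against 11.2, 14.5 and 14.5 CPM in WT islets (0.48 ± 0.26), and the glucose transporter Slc2a2 at 24.6, 18.1 and 20.8 CPM in Het islets, against 14.8, 16.3 and 15.5 CPM in WT islets (0.44 ± 0.23). The groups did not overlap for Iapp, Mafa, Ucn3 or Slc2a2. Pdx1, the master regulator of beta cells, was at 0.04 ± 0.14 with overlap. The 2 smallest p of the list were those of the transcription factor Hnf4a, the 1 member lower without overlap, at 45.8, 47.9 and 46.4 CPM in Het islets, against 50, 60.6 and 58.5 CPM in WT islets (-0.27 ± 0.09), and of neuronatin, Nnat, at 15.1, 13.8 and 15.4 CPM in Het islets, against 9.96, 11.7 and 11 CPM in WT islets (0.44 ± 0.16). G6pc2, which opposes glucokinase, was at 0.24 ± 0.11, and Pcx, which feeds pyruvate into the TCA cycle, at 0.30 ± 0.12. Untreated, the list had a median of 0.02 with 26 of 43 positive, against 50.5% of all genes. Summed, the list stood at 192497, 216465 and 223662 CPM in Het, against 179595, 193656 and 202822 CPM in WT islets, with overlap. Acinar sums were lower in the same Het libraries without overlap, and their part in the beta cell values was not tested.

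All 29 genes of the insulin secretion machinery had positive estimates, with a median of 0.13, and 8 were higher without overlap (7.71% of all genes). By edgeR 0 passed and 2 had an unadjusted p under 0.05. Rab27a, which tethers granules, stood at 207, 198 and 204 CPM in Het islets, against 158, 178 and 193 CPM in WT islets (0.20 ± 0.08), and Rab3a at 39.5, 41.9 and 38.2 CPM in Het islets, against 28.5, 33.5 and 36.6 CPM in WT islets (0.28 ± 0.13). The calcium channel Cacna1d was at 0.26 ± 0.12 and the sulfonylurea receptor Abcc8 at 0.26 ± 0.13, both with overlap. Of 19 genes of prohormone processing and granule cargo, 18 were positive (median 0.13), among them the convertase Pcsk2 (0.22 ± 0.13). Ptprn, the granule protein IA-2, was at 0.20 ± 0.10. The beta cell list shares members with the secretion list, such as Abcc8, and with the prohormone list, such as Pcsk2 and Ptprn. Their counts of positive estimates are therefore not independent. Untreated, the medians of the secretion and the prohormone list were -0.06 and 0.01. Glucagon, Gcg, stood at 0.14 ± 0.19 and somatostatin, Sst, at 0.08 ± 0.16. Pancreatic polypeptide, Ppy, stood at 931, 971 and 974 CPM in Het islets, against 138, 1106 and 1739.9 CPM in WT islets, and its direction turned with the processing.

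Mitochondrially encoded respiratory genes had positive estimates, while nuclear ones lay near 0. The 13 protein genes of mitochondrial DNA all had positive estimates, with a median of 0.18. Of these 13, 8 were higher without overlap (7.71% of all genes), 0 passed edgeR, DESeq2 or limma voom, and 0 had an unadjusted p under 0.05. Their sum was 13238, 12539.8 and 13386 CPM in Het, against 11591, 10754 and 11585 CPM in WT islets, and within the metadata pairs Het was 1.08, 1.23 and 1.15 times WT. These sums did not overlap, so any pairing would place Het higher. Their exact permutation p was 0.1, the smallest that 3 libraries against 3 can give. Among the 45 lists, the sums of the acinar, TCA cycle, ATF4 and CHOP, hypoxia and histone lists also reached it. The complex IV subunit mt-Co1 stood at 4226, 3899 and 4213 CPM in Het islets, against 3630.4, 3431 and 3573 CPM in WT islets (0.21 ± 0.11). The complex I subunits mt-Nd1 and mt-Nd5 were at 0.26 ± 0.14 and 0.22 ± 0.13. Untreated, the 13 genes had a median of 0.29, again all positive, with 0 higher without overlap. These genes are cut from shared long transcripts, so they are not independent. The medians of 36 nuclear complex I genes and of 40 nuclear genes of complexes II to V were 0.02 and 0.00, near all genes. In both lists 0 passed, and Atp5g2, a subunit of ATP synthase, was the 1 with an unadjusted p under 0.05, at 72.3, 70.3 and 72 CPM in Het islets, against 66.9, 65.7 and 67.1 CPM in WT islets (0.10 ± 0.05). The TCA cycle list of 26 had a median of 0.03, with Suclg2 and Pcx higher at an unadjusted p under 0.05. Without overlap, 7 of the 26 were higher and 2 lower, against 7.71% and 8.16% of all genes. The sum of this list also lay apart, at 2350 to 2372 CPM in Het, against 2223 to 2316 CPM in WT islets. Of the nuclear complex I genes 2 were higher and 3 lower without overlap, and of those of complexes II to V 6 and 2. The mitochondrial biogenesis list of 24 had a median of 0.02.

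The medians of the zinc transporter lists lay near 0, with a few low members. The 9 zinc exporters tested had a median of -0.0037, with 1 lower at an unadjusted p under 0.05. The 13 importers had a median of 0.0022, with 2 lower at that p and 3 lower without overlap (4.07% and 8.16% of all genes). Slc30a2, an exporter of acinar zymogen granules, stood at 1.28, 1.09 and 0.643 CPM in Het islets, against 2.07, 4.05 and 2.82 CPM in WT islets (-1.57 ± 0.38), and Slc39a5, an importer of pancreas and gut, at 0.542, 0.146 and 0.107 CPM in Het islets, against 1.07, 1.08 and 0.588 CPM in WT islets (-1.79 ± 0.45), next to the acinar difference given above. Slc39a2, another importer, stood at 0.155, 0.255 and 0.143 CPM in Het islets, against 0.62, 0.375 and 0.274 CPM in WT islets (-1.17 ± 0.48), a few reads per library. The zinc-binding metallothionein Mt1 stood at 572, 368 and 407 CPM in Het islets, against 461, 744 and 590 CPM in WT islets (-0.41 ± 0.16), and Mt2 at -0.29 ± 0.15, both with overlap. Untreated, Mt1 was lower without overlap (-0.85 ± 0.16), as were 7.24% of all genes. Mt3 stood the other way, at 5.5, 5.29 and 6.18 CPM in Het islets, against 3.88, 4.46 and 4.43 CPM in WT islets (0.41 ± 0.18), higher without overlap also in untreated islets (0.54 ± 0.17), and it passed in KO islets with cytokines (1.12 ± 0.18, edgeR adjusted p = 0.00258), where the WT libraries are the same and 1.48% of all genes passed as higher.

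Among genes that the cytokines switch on, the NF-kB and interferon lists had medians near 0, while chemokines had mostly negative and MHC class I genes mostly positive estimates. The 42 NF-kB targets had a median of 0.00 with 22 positive, and the 52 interferon-stimulated genes a median of 0.06 with 28 positive. By edgeR 0 of either list passed, and 2 of each were higher at an unadjusted p under 0.05. Nitric oxide synthase, Nos2, stood at 64.8, 55.7 and 77.7 CPM in Het islets, against 60.5, 63 and 63.5 CPM in WT islets (0.08 ± 0.33), and the chemokine Cxcl10 at 4.57, 2.01 and 5.36 CPM in Het islets, against 4.09, 2.88 and 2.82 CPM in WT islets (0.29 ± 0.53). Manganese superoxide dismutase, Sod2, an NF-kB target of mitochondria, stood at 687, 616 and 727 CPM in Het islets, against 553, 560.1 and 581 CPM in WT islets (0.26 ± 0.09), without overlap. Untreated, Sod2 was at -0.17 ± 0.09. Csf3, a growth factor of neutrophils, stood at 92.2, 75.9 and 112 CPM in Het islets, against 69, 72.3 and 75 CPM in WT islets (0.37 ± 0.18). The 23 genes of MHC class I presentation had 21 positive estimates and a median of 0.08, led by the immunoproteasome subunits Psmb9 (0.46 ± 0.16) and Psmb10 (0.28 ± 0.11). Of the chemokines, 17 of 21 had negative estimates, with a median of -0.18 and 0 past an unadjusted p of 0.05, and the median was 0.06 without WT replicate 1. The interferon list's median was -0.04 without Het replicate 3. Of 30 NRF2 and antioxidant genes, 12 had positive and 18 negative estimates (median -0.04, and 0.04 without WT replicate 1), and 4 were higher and 1 lower at an unadjusted p under 0.05. The higher ones included Txnrd1 (0.17 ± 0.06), Hmox1 (0.32 ± 0.12) and Gclm (0.19 ± 0.07), and the lower one was the ER peroxiredoxin Prdx4 (-0.21 ± 0.06). Hepcidin, Hamp, the iron hormone, stood at 56.1, 88.7 and 66.7 CPM in Het islets, against 93.7, 100.5 and 106 CPM in WT islets (-0.50 ± 0.22), and at -1.77 ± 0.33 untreated. Of 33 apoptosis genes 0 passed, and the initiator caspase Casp9 was the 1 with an unadjusted p under 0.05 (-0.24 ± 0.07).

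**Figure D3:**
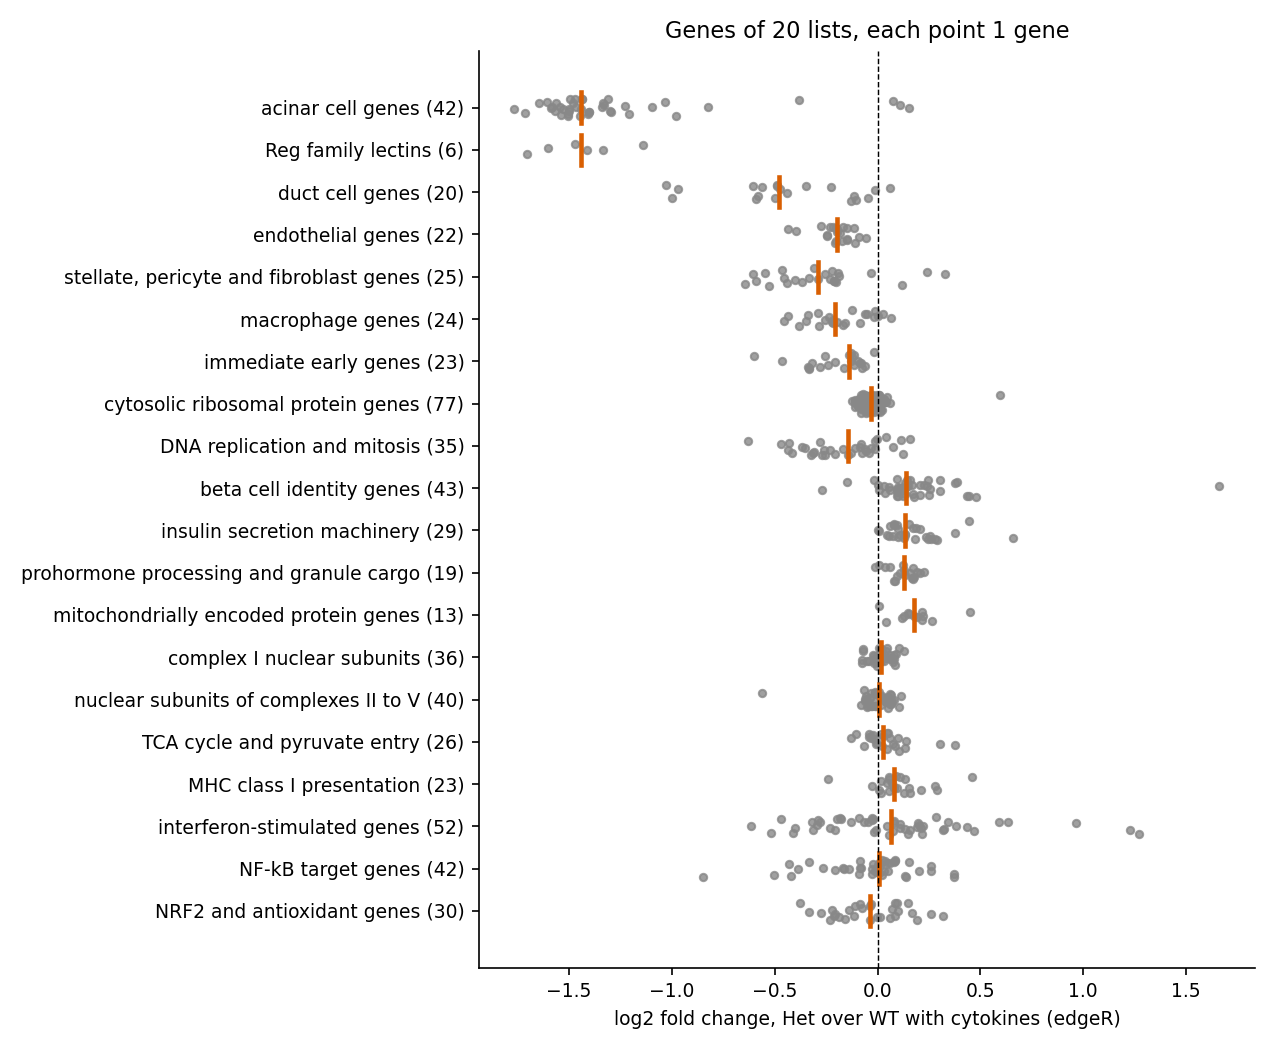
Log2 fold change, Het over WT with cytokines, of each tested gene (grey points) in 20 lists, with the list's median as an orange bar and the number of genes in brackets. Acinar and Reg genes lie around -1.44, duct genes around -0.48, and beta cell, secretion and mitochondrially encoded genes around 0.13 to 0.18.

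Markers of vessels, stroma and immune cells had mostly negative estimates, and the summed levels of the endothelial, stromal and macrophage lists overlapped between genotypes. All 22 endothelial genes had negative estimates (median -0.20, and 0.03 without WT replicate 1), with 1 lower without overlap and 0 past an unadjusted p of 0.05. Their sum was 721, 611 and 543 CPM in Het, against 924, 644 and 600.3 CPM in WT islets. Genes of stellate cells, pericytes and fibroblasts had a median of -0.29 (22 of 25 negative, none without overlap), which was -0.64 without Het replicate 2 and -0.06 without WT replicate 1. Their sum was 1139, 2309 and 1178 CPM in Het, against 2652, 1862 and 1543 CPM in WT islets. Within the metadata pairs, which were chosen from these data, Het was 0.87, 0.612 and 0.763 times WT. Paired by label replicate number instead, Het replicate 2 stood above WT replicate 2. Macrophage genes had a median of -0.21 (21 of 24 negative), which was -0.47 without Het replicate 2 and -0.06 without WT replicate 1. Their sum was 502, 556 and 434 CPM in Het, against 716, 559 and 452 CPM in WT islets, and within the metadata pairs Het was 0.777, 0.897 and 0.96 times WT. For the endothelial sum, Het was 0.661, 1.12 and 0.905 times WT in these pairs. Lymphocyte markers summed to 2.01, 4.05 and 2.93 CPM in Het, against 3.55, 3.67 and 4.04 CPM in WT islets, with 5 of 15 tested. The 23 immediate early genes all had negative estimates (median -0.14), 3 of them at an unadjusted p under 0.05, among them Klf4 (-0.34 ± 0.10). Cytosolic ribosomal protein genes lay at -0.03, with 17 of 77 lower and 2 higher without overlap, against 8.16% and 7.71% of all genes. At an unadjusted p under 0.05, 1 was lower and 0 higher. In untreated islets this list had a median of 0.04, with 58 of 77 positive.

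Several of these lists lay on the other side in untreated islets. DNA replication and mitosis genes had a median of -0.14 with cytokines, 30 of 35 negative, and of 0.44 untreated, 35 of 35 positive. The median with cytokines was 0.03 without Het replicate 3 and 0.04 without WT replicate 1. The stellate cell and fibroblast list stood at -0.29 and 0.34, and the macrophage list at -0.21 and 0.25. The spread was wide in untreated Het islets, where the stellate cell and fibroblast sum was 2013, 4754 and 5297 CPM, against 2911, 3276 and 3225 CPM in untreated WT islets. Without Het replicate 1, the untreated medians were 0.81 for replication and mitosis, 0.67 for stellate cells and fibroblasts, and 0.51 for macrophages. In a test of the difference itself (Het minus WT with cytokines, less the same untreated), edgeR called 0 higher and 0 lower genes, and 863 (4.91%) had an unadjusted p under 0.05. The 3 smallest p were those of Ogdhl, Pdk3 and Optn. Ogdhl, related to the oxoglutarate dehydrogenase of the TCA cycle, stood at 87.7, 74.7 and 86.2 CPM in Het islets, against 66.1, 72.5 and 71.2 CPM in WT islets with cytokines (0.24 ± 0.09) and at 119.8, 122 and 97.3 CPM in Het islets, against 139, 152 and 131 CPM in WT islets untreated (-0.31 ± 0.09), a difference of 0.56 ± 0.12 (edgeR adjusted p = 0.868). Pdk3, a kinase that holds back pyruvate dehydrogenase, gave 0.38 ± 0.08, and Optn, an autophagy receptor, 0.27 ± 0.06.

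**Figure D4:**
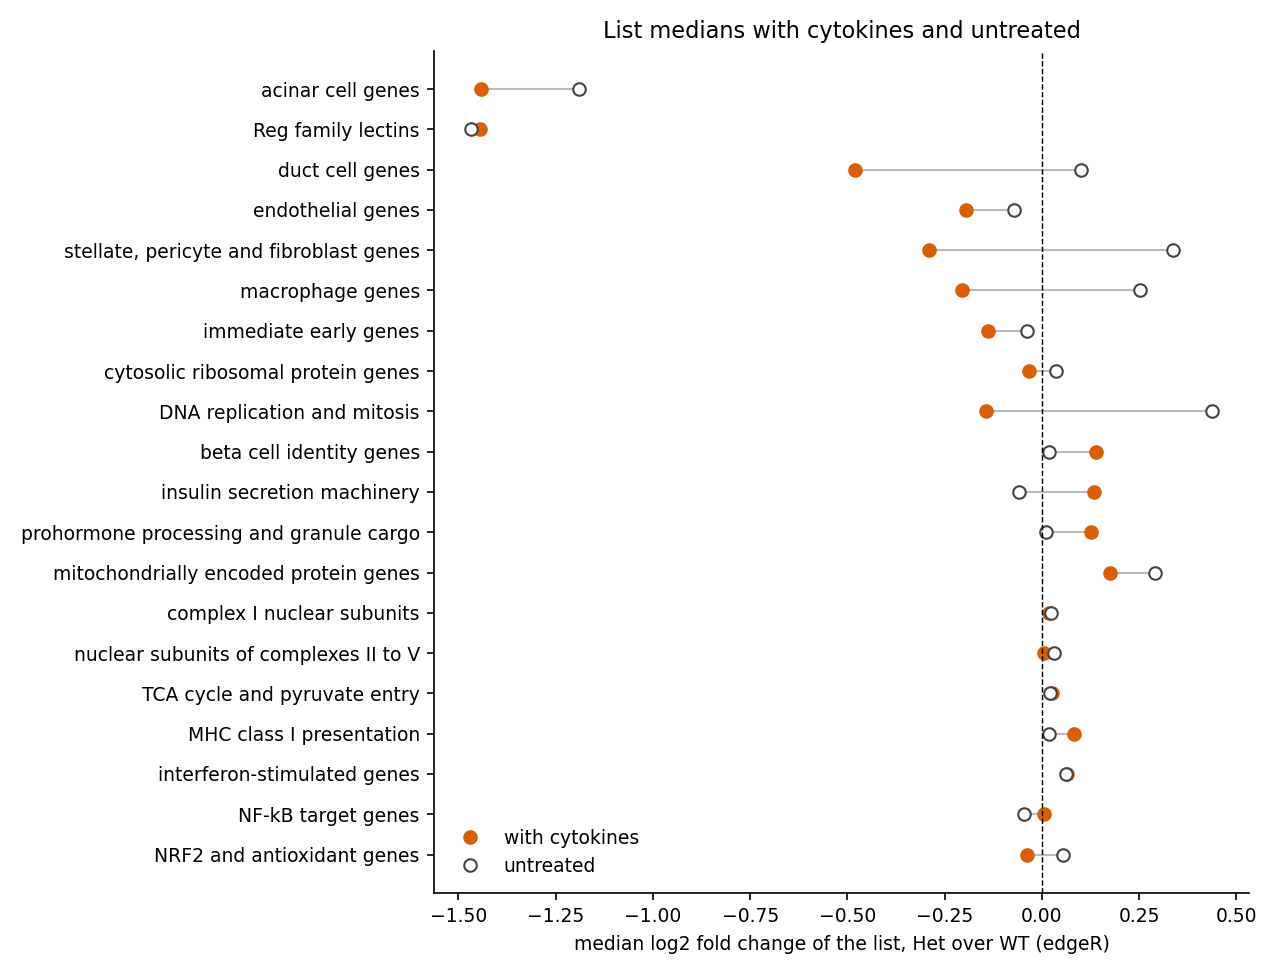
Median log2 fold change, Het over WT, of 20 gene lists with cytokines (filled) and untreated (open), from different libraries. The acinar and Reg lists lie low in both treatments, while the DNA replication, stellate cell and macrophage lists lie under 0 with cytokines and above 0 untreated.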

How the data were processed

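The deposited count table holds unnormalized whole numbers for 55536 genes in 18 libraries. The authors also deposited a metadata table and a filtered table of 25253 genes used only as an alternative. Per the submitters' processing notes, the tools named are STAR 2.5.2a, cutadapt 1.16, featureCounts 1.6.2, FastQC 0.11.7 and DESeq2 1.30.0, and the build is GRCm38. Whether counting used strand is not stated there, which leaves reads of overlapping genes, and of near-identical ones, less certain. Counts were turned here into CPM and log2 fold changes in edgeR 4.0.16 (R 4.3.3), with DESeq2 1.42.0 and limma 3.58.1 as alternatives; matplotlib 3.10.9 under Python 3.11.15 drew the figures. After filterByExpr (count minimum 10) and TMM scaling, a quasi-likelihood fit took 1 mean for each group over the 18 libraries. It had 12 residual degrees of freedom, and the biological coefficient of variation had a median of 0.103. P-values were adjusted over all 17590 tested genes (Benjamini-Hochberg, threshold 0.05). All 17590 had a GENCODE M21 entry.

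The 45 gene lists (13 of cell types) and the comparison itself were chosen with earlier results of these data known. Named genes were Slc30a8, the 15 higher and 15 lower of smallest p (mean level 2 CPM or more, no overlap), the 3 of smallest interaction p, up to 4 members per list by p (6 by level for cell types) and fixed genes. Cpn1, Egf and Bhlha15 were named after their values were seen, and Amy2b and Gclm were also named outside these rules. Same-numbered Het and WT libraries in the deposited metadata deviated together (correlations 0.132, 0.402 and 0.493 over 13099 genes), but what the numbers mark is not stated. The numbers were taken as pairs on these correlations, so the pairs were chosen from these data. The block, too, was added after seeing the data. In counts simulated for this comparison (17403 genes), the share of changed genes that edgeR recovered was 59.7% at 1.5-fold, 78.6% at 2-fold and 94.1% at 4-fold, and 5 of its 161 calls were false. Of DESeq2's 183 calls 17 were false, and of limma voom's 160 calls 4. Each gene was drawn independently at its fitted spread, with no variation shared by genes within a library. These rates therefore do not say how many changes of a given size edgeR missed in the real libraries. There, 0 of 42 acinar genes passed edgeR at a median of -1.44. Alternatives were RLE scaling, no low-count filter, the filtered table's genes, only the groups compared, both other tools, replicate blocks and leaving out each library.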

Additional observations from a re-analysis of the deposited data

How the results depend on the processing

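Between Het and WT islets with cytokines, edgeR's 0 higher and 0 lower genes became 3 and 48 with DESeq2, 14 and 104 with limma voom, 1 and 22 without the low-count filter, and 1 and 0 on only the groups compared. The metadata replicate block gave 3 lower. Libraries with the same label replicate number had correlations of -0.132, -0.0284 and 0.493, and with these numbers as a replicate block 2 genes were lower. Leaving out each library gave 0 higher and 0 to 31 lower genes, the 31 without WT replicate 1. RLE size factors and the authors' filtered table gave 0 and 0. Untreated, 0 higher and 1 lower became 4 and 44 with DESeq2, 1 and 0 with limma voom, and 3 and 7 without the filter; the lower count was 0 with either replicate block and on only the groups compared, and leaving out a library gave 0 to 1 in each direction. The interaction stayed at 0 in each alternative run. KO against WT islets with cytokines, 261 higher and 678 lower, became 676 higher with DESeq2, 1755 and 2303 with limma voom, and 146 and 325 on only the groups compared; leaving out a library gave 22 to 458 higher and 199 to 910 lower. The summed acinar level, a log2 ratio of -1.32, ranged from -1.53 to -1.15 with a library left out. Of 1498 pairs of a named gene and an alternative, 14 in 5 genes changed sign: Slc30a8 (0.0003 without the filter, and -0.32 to 0.13 with a library left out), Optn (-0.0042 to 0.0423), Pdx1 (-0.0076 with limma voom, -0.0386 to 0.107 with a library left out), Ppy (0.17 with limma voom, 0.0878 with the replicate block, -0.57 to 0.63 with a library left out) and Nos2 (-0.0482 to 0.194). The cause of these changes was not tested. Genes under 2 CPM, such as Rbpjl and Slc39a5, rest on few reads, and no alternative depth was run.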
